A study of Mus musculus with 15 samples.

Results

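Fos, Fosb, Fosl2, Jun, Junb, Jund, Egr1, Egr3, Atf3 and Ier2 are immediate early genes and members of the AP-1 transcription factor family, and these 10 of the 55335 genes in the expression table were taken by their symbols. Their RNA was measured by RNA sequencing in tumor-associated macrophages (TAMs) of C57BL/6 mice carrying orthotopic hepatocellular carcinoma (HCC), that is, tumors grown in the liver from injected Hepa1-6 cells, a mouse hepatoma line. The tumor cells were either control cells, cells overexpressing miR-144 or cells overexpressing miR-451a, which were made with lentiviruses, and each group held 5 samples (15 in all). The miRNAs were thus changed in the tumor cells, whereas the RNA came from macrophages that were sorted from those tumors on the surface proteins CD11b and F4/80, and the groups are called control, miR-144 and miR-451a TAMs here. All groups shared the mouse strain, the tumor line and the site of the tumor, and the ages of the mice and the number of mice behind a sample are not given in the sources used here. The study states a smaller number of replicates for this experiment than the samples labelled here, and how they relate is not given. Because nothing states that the 5 samples of a group came from separate mice, the p-values measure the spread between these samples, which may be technical.

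Immediate early genes are transcribed within minutes of a stimulus from factors that are already in the cell, so that growth factors, cytokines, adhesion and handling stress all raise them for a short time. Proteins of the FOS and JUN families pair through leucine zippers to form AP-1, which binds DNA at TGAGTCA or TGACTCA, while ATF3 pairs with JUN proteins or with itself and is known in macrophages as a brake on inflammatory genes. EGR1 and EGR3 are zinc finger factors of the same early wave, and in macrophages AP-1 takes part in the transcription of cytokines, proteases and differentiation genes.

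The promoters of Fos, Jun, Atf3 and Junb are shown because Fos, Jun and Atf3 were lower in both miRNA groups and Junb was not called in either. They are the RefSeq windows of 250 bases before and 50 bases after the annotated start on GRCm38.p6, which lie at chr12:85473640-85473939 (plus strand) for Fos, chr4:95052173-95052472 (minus strand) for Jun, chr1:191183284-191183583 (minus strand) for Atf3 and chr8:84978699-84978998 (minus strand) for Junb, and each is written 5′ to 3′ along its gene. Capitals mark the core of the cyclic AMP response element (TGACG, read on both strands), its variants TTACGTCA and TGACATCA, and the TATA box TATAAA.
Fos: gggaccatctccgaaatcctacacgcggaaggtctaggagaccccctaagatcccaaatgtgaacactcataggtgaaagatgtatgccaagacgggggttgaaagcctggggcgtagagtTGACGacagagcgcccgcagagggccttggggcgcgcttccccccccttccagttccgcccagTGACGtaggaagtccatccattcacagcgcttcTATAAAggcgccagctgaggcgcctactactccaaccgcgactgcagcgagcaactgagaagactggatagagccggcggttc
Jun: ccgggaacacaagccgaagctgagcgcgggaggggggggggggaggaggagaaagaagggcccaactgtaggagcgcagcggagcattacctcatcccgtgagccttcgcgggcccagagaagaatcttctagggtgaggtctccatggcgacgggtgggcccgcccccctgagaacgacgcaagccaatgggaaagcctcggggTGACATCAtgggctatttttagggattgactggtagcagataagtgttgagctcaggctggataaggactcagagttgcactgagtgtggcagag
Atf3: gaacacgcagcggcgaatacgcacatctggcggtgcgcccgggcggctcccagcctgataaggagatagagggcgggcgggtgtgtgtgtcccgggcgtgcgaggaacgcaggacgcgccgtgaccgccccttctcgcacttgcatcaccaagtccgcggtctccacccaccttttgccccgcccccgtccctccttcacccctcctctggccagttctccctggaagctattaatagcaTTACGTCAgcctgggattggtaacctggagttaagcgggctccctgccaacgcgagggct
Junb: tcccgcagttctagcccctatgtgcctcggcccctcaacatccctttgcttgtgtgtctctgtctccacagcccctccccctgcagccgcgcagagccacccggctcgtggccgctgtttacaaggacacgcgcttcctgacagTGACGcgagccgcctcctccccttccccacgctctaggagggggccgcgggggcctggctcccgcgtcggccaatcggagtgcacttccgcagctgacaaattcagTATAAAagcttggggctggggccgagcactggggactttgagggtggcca

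RefSeq held such a window for 7 of the 10 genes, Atf3, Jun, Fosl2, Fosb, Jund, Junb and Fos. The Atf3 and Fosl2 windows lie at starts inside the genes as GENCODE M21 draws them, and the Jund window lies upstream of the Jund start there. The Junb window is likewise drawn around a start upstream of the Junb start there, and the Fosb start lies a few bases inside its gene. The variants TTACGTCA and TGACATCA were found in 2 of the 7 windows, in Atf3 at base -10 and in Jun at base -45 from the start, and in 4.11% of all 32851 RefSeq promoters of the same length. The core TGACG was found in 4 windows, in Fos at -129 and -66, in Junb at -106, in Fosb at -60 and in Atf3, where it lies on the opposite strand inside the variant at -7, and in 20.8% of all promoters. A TATA box was found in Fos at -33 and in Junb at base 1 (13.6% of all promoters). The Junb box thus begins at the RefSeq start but lies upstream of the start in GENCODE M21. The AP-1 sites TGAGTCA and TGACTCA were in 0 of the 7 windows and in 5.20% of all promoters, the full cyclic AMP response element TGACGTCA in 0 and in 1.79%, and the CArG box, which serum response factor binds, in 0 and in 1.63%. The EGR site (GCGTGGGCG or GCGGGGGCG), which EGR factors bind, was in the windows of Fosl2 at -79 and Fosb at -50 and in 3.47% of all promoters. The GC box GGGCGG was in 5 windows (Atf3, Jun, Fosl2, Fosb and Fos), overlapping the EGR site in Fosl2 and Fosb, and in 35.7% of all promoters, and the ETS site CCGGAA in 0 and in 14.9%. All motifs were read on both strands. These are matches of letters in a short window, and no match says only that the letters are not in it.

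The mature forms of the overexpressed miRNAs, from RefSeq on GRCm38.p6, are shown to set their seeds (bases 2 to 8, in capitals) beside the 3′ UTRs of the 10 genes. They lie on the plus strand at chr11:78073010-78073032 for miR-144-5p, chr11:78073047-78073066 for miR-144-3p and chr11:78073186-78073207 for miR-451a, and the labels do not say which arm of miR-144 was raised.
mmu-miR-144-5p: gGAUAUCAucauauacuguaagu
mmu-miR-144-3p: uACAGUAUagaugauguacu
mmu-miR-451a: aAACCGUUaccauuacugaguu

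The 3 seeds differ from each other. Among the 3′ UTRs of the 10 genes in GENCODE M21, Fosb alone held a match to any of the 3 seeds, a single match to miR-144-3p that begins at base 1074 of 2302. It is shown here with the matching bases in capitals.
Fosb: tggagcgctttATACTGTgaatgagtggt

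A match to the miR-144-3p seed is present in 12.3% of the 21124 annotated 3′ UTRs, one to miR-144-5p in 6.59% and one to miR-451a in 1.95%. The levels of the miRNAs in the TAMs were not analysed here.

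The levels are FPKM, fragments per kilobase of transcript scaled to the mapped fragments of the library, as the authors deposited them, so that genes can be compared per length. Depth implied by the steps between low values was 15.5 M to 30.3 M fragments per sample, and a level of 3 fragments was taken as the floor of a gene. Gene positions below are those of GENCODE M21 on GRCm38. Replicates within a group correlated across genes at 0.982 to 0.993. All 7 macrophage markers were expressed in every sample, and the hepatocyte genes Alb, Apoa1, Ttr and Apoc3 were listed at 0 in all 15 samples. T cell, B cell, NK cell and dendritic cell markers each stayed under 1 FPKM. Differences were tested with limma on log2(FPKM + 1), a scale that understates the change of low genes, over 11419 genes that averaged 1 FPKM or more, and a gene was called at an adjusted p under 0.05. In bulk samples, fewer cells of a type and less RNA per cell cannot be told apart.

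In miR-144 TAMs, Fos, Fosl2, Jun, Jund and Atf3 were lower than in control TAMs and Ier2 was higher, while Junb and Egr1 were not called. These are 6 of the 8 genes above the filter, in a comparison in which 67.2% of all tested genes were called, 47.1% higher and 20.1% lower. In miR-451a TAMs the same 6 genes were called in the same directions (1 higher and 5 lower), against a background of 68.3% called, 48.1% higher and 20.3% lower. The share of called genes among the 10 was thus near the background, and 5 of the 6 went in the direction that was less common among all genes. The median log2 fold change of the 8 genes was -0.48 in miR-144 and -0.46 in miR-451a TAMs, and that of all tested genes was 0.13 and 0.14. The comparisons with control share their control samples, so they are not independent and their values stand side by side. Centring every sample on its median brought the share of higher calls among all called genes from 70.1% to 50.01% for miR-144 and from 70.3% to 49.6% for miR-451a, and the 6 genes stayed called in the same directions, with Junb as another lower gene in both.

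**Figure D1:**
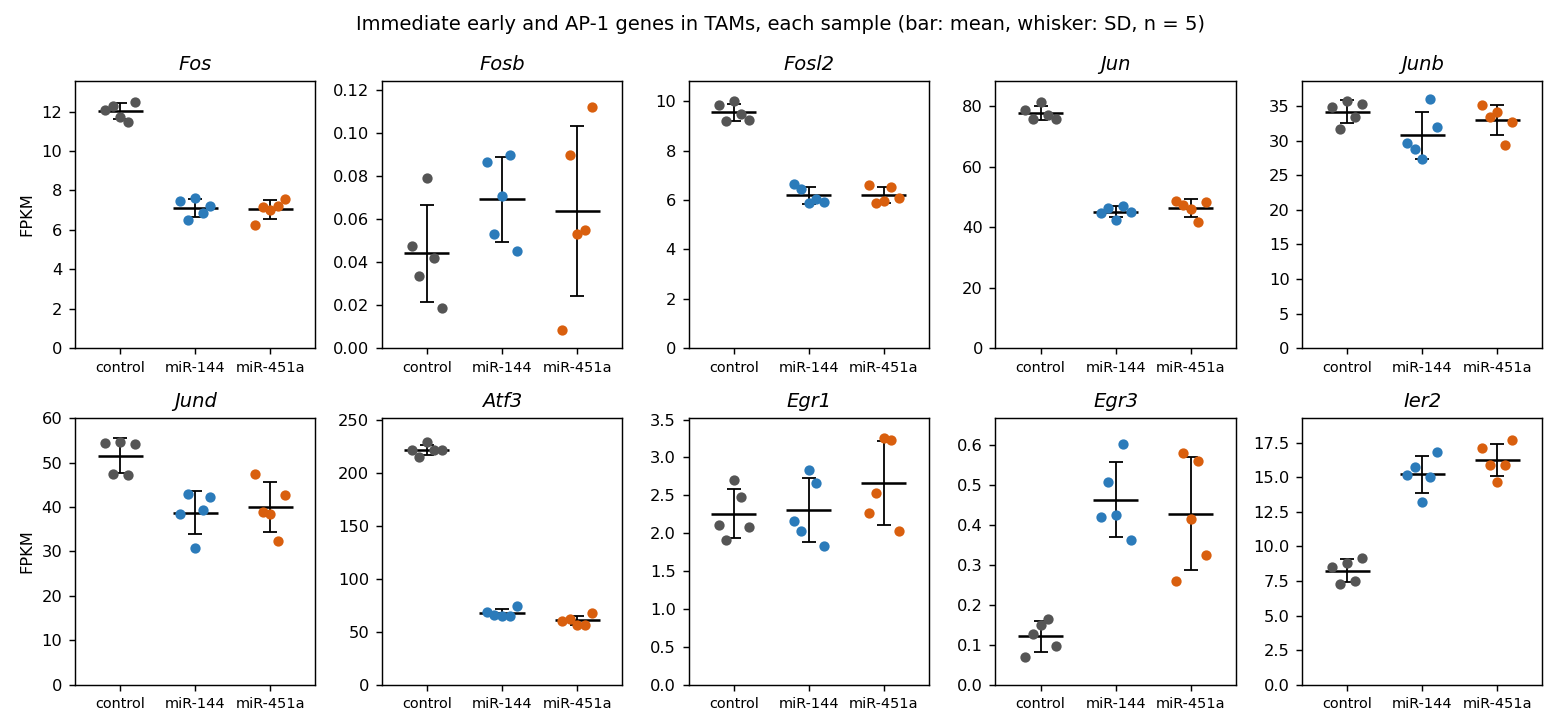
FPKM (vertical axes, each from 0) of the 10 genes in every sample of control, miR-144 and miR-451a TAMs; points are samples, horizontal bars means and whiskers SD (n = 5). Fos, Fosl2, Jun and Atf3 lie lower in all 10 miRNA samples than in any control sample, Ier2 and Egr3 lie higher, Fosb, Junb and Egr1 overlap, and Jund overlaps with control in miR-451a TAMs only.

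Fos (ENSMUSG00000021250, chr12:85473890-85477273, plus strand), the best known partner of the JUN proteins, was at 12.1, 12.3, 11.7, 11.5 and 12.5 FPKM in control TAMs (replicates 1 to 5). It was at 7.46, 6.49, 7.59, 6.83 and 7.22 FPKM in miR-144 TAMs and at 6.25, 7.18, 7.02, 7.23 and 7.57 FPKM in miR-451a TAMs. No miRNA sample reached the lowest control sample, and the miRNA groups overlapped. Mean Fos fell from 12.01 ± 0.41 FPKM (SD, n = 5) by 1.69-fold to 7.12 ± 0.46 in miR-144 TAMs and by 1.70-fold to 7.05 ± 0.49 in miR-451a TAMs. The log2 fold changes were -0.68 (SE 0.05, limma adjusted p = 6.63e-09) and -0.69 (SE 0.05, adjusted p = 5.03e-09).

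Fosl2 (ENSMUSG00000029135, chr5:32135801-32157842, plus strand), which encodes the FOS relative FRA-2, was at 9.83, 9.21, 9.996, 9.48 and 9.23 FPKM in control TAMs. In miR-144 TAMs it was at 6.64, 6.46, 5.86, 6.03 and 5.91 FPKM, and in miR-451a TAMs at 6.59, 5.88, 5.94, 6.51 and 6.06 FPKM. Its groups lay apart as those of Fos did, with log2 fold changes of -0.56 (SE 0.04, limma adjusted p = 1.32e-08) and -0.55 (SE 0.04, adjusted p = 1.34e-08). Fosb (ENSMUSG00000003545, chr7:19302696-19310051, minus strand), the third FOS gene of the 10, was near the floor, at 0.047, 0.034, 0.079, 0.042 and 0.018 FPKM in control TAMs. It was at 0.087, 0.053, 0.071, 0.090 and 0.045 FPKM in miR-144 TAMs and at 0.0083, 0.090, 0.053, 0.055 and 0.11 FPKM in miR-451a TAMs. The floor of 3 fragments was exceeded in 4 control, 5 miR-144 and 4 miR-451a samples, the groups overlapped, and no difference was detectable at this depth (limma without the filter, adjusted p = 0.34 and 0.45). The 1 gene with a seed match to miR-144-3p was therefore also the lowest of the 10.

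Jun (ENSMUSG00000052684, chr4:95049034-95052222, minus strand), the founding JUN gene and the second most abundant of the 10, was at 78.8, 75.7, 81.3, 76.9 and 75.7 FPKM in control TAMs. It was at 44.6, 46.4, 42.4, 47.0 and 44.8 FPKM in miR-144 TAMs and at 48.7, 47.4, 45.8, 41.6 and 48.4 FPKM in miR-451a TAMs. Every miRNA sample was far under the lowest control sample. The mean fell by 1.72-fold in miR-144 TAMs, with a log2 fold change of -0.77 (SE 0.04, limma adjusted p = 3.92e-10), and by 1.68-fold in miR-451a TAMs, with -0.73 (SE 0.04, adjusted p = 6.92e-10).

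Jund (ENSMUSG00000071076, chr8:70698949-70700616, plus strand), a JUN gene known for steady expression in resting cells, was at 54.3, 47.4, 54.6, 47.2 and 54.3 FPKM in control TAMs. In miR-144 TAMs it was at 38.5, 42.9, 30.7, 39.3 and 42.3 FPKM, and in miR-451a TAMs at 47.5, 38.8, 38.5, 32.4 and 42.8 FPKM. Replicate 1 of miR-451a, at 47.5 FPKM, lay above the 2 lowest control samples, so these groups overlapped, while all miR-144 samples lay under the control samples. The log2 fold changes were smaller than those of Jun, at -0.41 (SE 0.10, limma adjusted p = 0.0021) and -0.37 (SE 0.10, adjusted p = 0.0044).

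Junb (ENSMUSG00000052837, chr8:84974484-84978718, minus strand), whose protein can oppose JUN at some promoters and is prominent in activated macrophages, was at 34.9, 31.7, 35.8, 33.4 and 35.4 FPKM in control TAMs. It was at 29.7, 28.9, 27.3, 36.0 and 32.0 FPKM in miR-144 TAMs and at 35.1, 33.5, 34.2, 29.4 and 32.7 FPKM in miR-451a TAMs. The highest of all 15 values was a miR-144 sample, replicate 4, and the groups overlapped. The log2 fold change was -0.15 in miR-144 TAMs (95% interval -0.29 to -0.01, limma adjusted p = 0.052) and -0.05 in miR-451a TAMs (-0.19 to 0.09, adjusted p = 0.49). Without replicate 4 of miR-144 it was -0.21 with an adjusted p of 0.0045, and without replicate 2 of control -0.18 with 0.035, so the call of Junb turned on single samples.

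The make-up of the JUN family RNA therefore differed between the groups. Jun made up 47.6% ± 1.33 of the summed FPKM of Jun, Junb and Jund in control TAMs (SD, n = 5), 39.4% ± 1.75 in miR-144 TAMs and 38.9% ± 1.17 in miR-451a TAMs. The lowest control share, 45.8%, was above the highest miRNA share, 42.2%. The share of Junb went the other way, from 20.9% ± 0.36 to 26.9% ± 1.81 and 27.7% ± 1.08, and that of Jund was 31.5% ± 1.19, 33.7% ± 2.39 and 33.4% ± 1.93, with overlap. The sum of the JUN genes was 163 ± 7.07 FPKM in control, 115 ± 8.63 in miR-144 and 119 ± 10.2 in miR-451a TAMs, and that of the FOS genes 21.6 ± 0.38, 13.4 ± 0.51 and 13.3 ± 0.43 FPKM. Fos kept a similar part of the FOS sum, at 55.6%, 53.2% and 52.9% on average. The JUN sum exceeded the FOS sum in every sample, by 7.57 ± 0.25-fold in control, 8.59 ± 0.86-fold in miR-144 and 8.99 ± 0.97-fold in miR-451a TAMs. These shares and ratios are descriptions and were given no test.

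**Figure D2:**
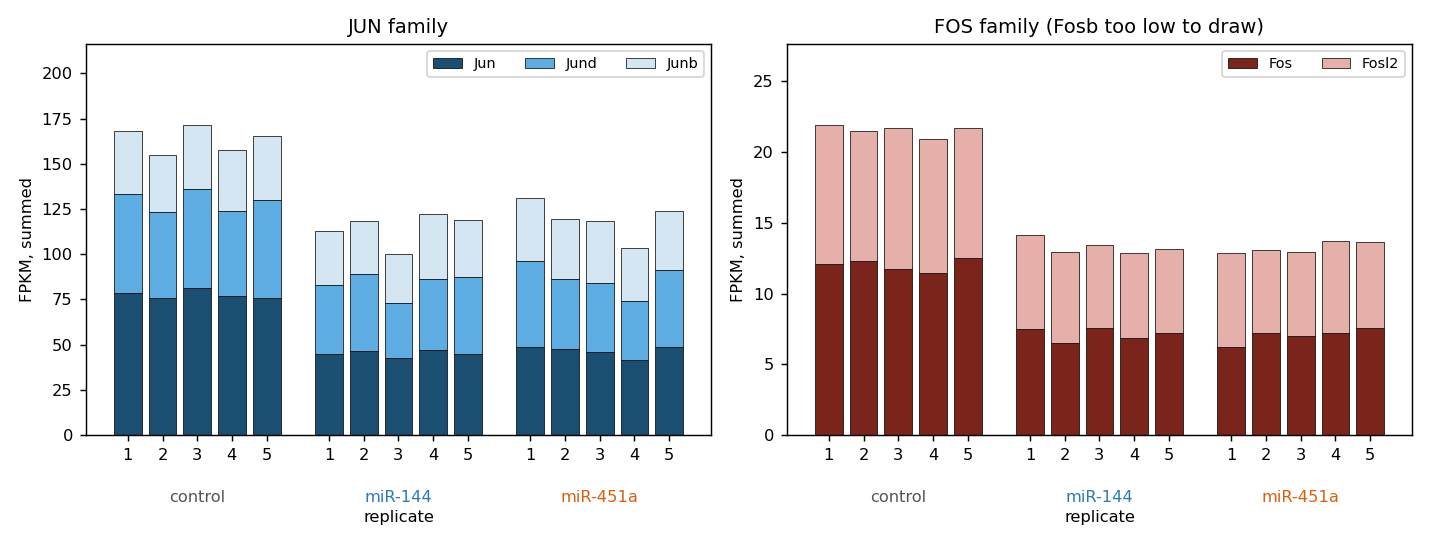
Summed FPKM (vertical axes) of the JUN genes (left) and of Fos and Fosl2 (right) in each of the 15 samples, stacked by gene. Numbers under the bars are replicates. The JUN sum is 155 to 172 FPKM in control samples and 100 to 131 FPKM in the miRNA samples, and the shrinking segment is mostly Jun, while the Junb segment keeps nearly the same height.

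Atf3 (ENSMUSG00000026628, chr1:191170296-191218039, minus strand), the stress-responsive factor that pairs with JUN, was the most abundant of the 10 genes in every group and had the largest change among them on the log2(FPKM + 1) scale, while the ratio of means of the low gene Egr3 in miR-144 TAMs was larger. It was at 222, 215, 229, 222 and 222 FPKM in control TAMs, at 68.7, 66.3, 64.7, 64.7 and 74.3 FPKM in miR-144 TAMs and at 60.5, 61.9, 56.8, 56.8 and 67.7 FPKM in miR-451a TAMs. The highest miRNA sample, at 74.3 FPKM, was far under the lowest control sample. The mean fell 3.28-fold in miR-144 TAMs, with a log2 fold change of -1.70 (SE 0.05, limma adjusted p = 2.20e-13), and 3.65-fold in miR-451a TAMs, with -1.85 (SE 0.05, adjusted p = 7.80e-14). By mean level Atf3 ranked 146 among the 11419 tested genes in control TAMs, 562 in miR-144 TAMs and 634 in miR-451a TAMs. Its ratio to Jun dropped from 2.86 ± 0.05 to 1.51 ± 0.11 and 1.31 ± 0.07 (SD, n = 5), without overlap between control and either miRNA group.

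Ier2 (ENSMUSG00000053560, chr8:84661331-84662852, minus strand), a small nuclear protein gene induced with the FOS and JUN genes, rose where Fos, Fosl2, Jun and Jund fell. It was at 8.53, 7.26, 8.79, 7.53 and 9.20 FPKM in control TAMs, at 15.2, 15.8, 13.2, 15.02 and 16.8 FPKM in miR-144 TAMs and at 17.1, 15.9, 14.7, 15.9 and 17.7 FPKM in miR-451a TAMs. All 10 miRNA samples were above all control samples. The mean rose 1.84-fold in miR-144 TAMs, with a log2 fold change of 0.81 (SE 0.07, limma adjusted p = 7.91e-08), and 1.97-fold in miR-451a TAMs, with 0.90 (SE 0.07, adjusted p = 2.19e-08). In control TAMs Ier2 was lower than Fos in every sample, with a ratio of 0.688 ± 0.065, and in the miRNA groups it was higher, with ratios of 2.15 ± 0.27 and 2.32 ± 0.25.

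Egr1 (ENSMUSG00000038418), the zinc finger factor that is usually the sharpest marker of a recent stimulus, was low, and its groups overlapped. It was at 2.12, 1.91, 2.70, 2.48 and 2.08 FPKM in control TAMs, at 2.16, 2.03, 2.84, 2.66 and 1.84 FPKM in miR-144 TAMs and at 2.27, 2.53, 3.25, 3.23 and 2.03 FPKM in miR-451a TAMs. The log2 fold change was 0.02 in miR-144 TAMs (95% interval -0.22 to 0.25, limma adjusted p = 0.89) and 0.16 in miR-451a TAMs (-0.07 to 0.40, adjusted p = 0.20). A change as large as that of Fos, Jun or Ier2 lies outside both intervals. With a replicate block Egr1 was called higher in miR-451a TAMs, at the same 0.16 (limma adjusted p = 0.012).

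Egr3 (ENSMUSG00000033730, chr14:70077203-70082614, plus strand), a relative of Egr1, was far lower still, at 0.069, 0.13, 0.15, 0.17 and 0.097 FPKM in control TAMs. It was at 0.42, 0.51, 0.43, 0.60 and 0.36 FPKM in miR-144 TAMs and at 0.26, 0.58, 0.42, 0.56 and 0.33 FPKM in miR-451a TAMs. All samples were above the floor of 3 fragments, which was at most 0.049 FPKM, and the miRNA samples were above all control samples. The mean was 3.82-fold higher in miR-144 and 3.53-fold higher in miR-451a TAMs. In the fit without the filter the log2 fold changes were 0.38 (SE 0.06, limma adjusted p = 0.00021) and 0.34 (SE 0.06, adjusted p = 0.00050), and with a pseudocount of 0.01 in place of 1 they were 1.88 and 1.73. Egr3 passed the test among 29540 genes above 0 in at least 1 sample, but even its highest value was under 1 FPKM.

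**Figure D3:**
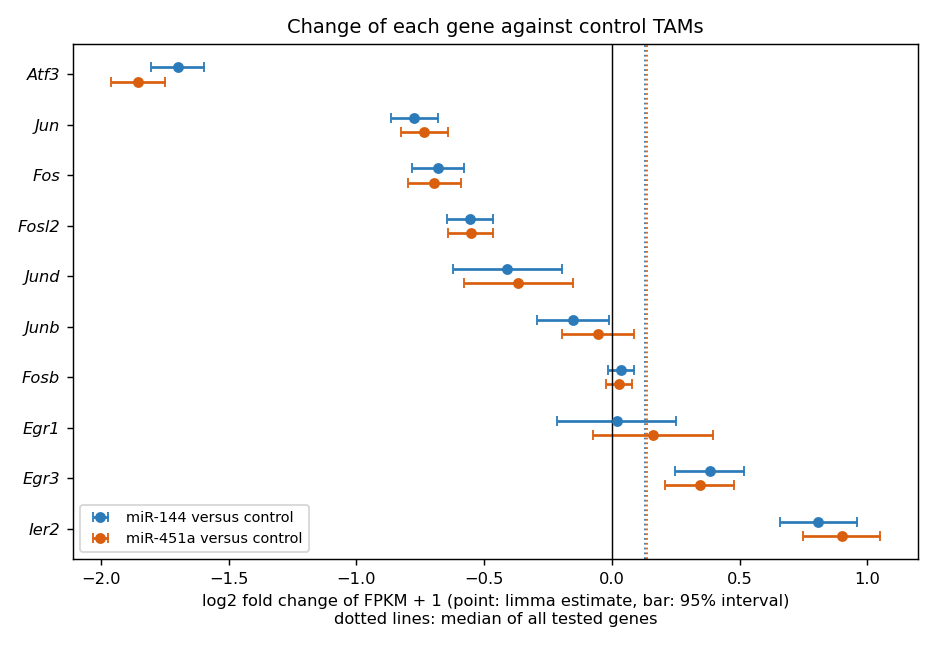
Log2 fold change of FPKM + 1 (horizontal axis) of the 10 genes in miR-144 (blue) and miR-451a (orange) TAMs against control TAMs; points are limma estimates, bars 95% intervals, and dotted lines the medians of all tested genes (0.13 and 0.14). Estimates run from -1.70 and -1.85 for Atf3 to 0.81 and 0.90 for Ier2, and the 2 colors lie close together at each gene.

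In control TAMs the order by mean level was Atf3, Jun, Jund, Junb, Fos, Fosl2, Ier2, Egr1, Egr3 and Fosb, and among neighbors in this order only Egr3 and Fosb overlapped between samples. The miRNA groups shared another order, Atf3, Jun, Jund, Junb, Ier2, Fos, Fosl2, Egr1, Egr3 and Fosb. There Jun overlapped with Jund, Jund with Junb, and Fos with Fosl2. Jun, Junb, Jund and Ier2 have a single exon in their longest annotated transcript (GENCODE M21). None of the longest transcripts of the 10 genes shares a stretch of 50 bases, read in the same direction, with the transcripts of another gene. Sharing with the opposite strand was not searched. Junb overlaps 351 bases of Prdx2 on the opposite strand, which was itself at 32.7 FPKM, and Jun, Jund and Atf3 overlap opposite-strand genes that averaged at most 0.38 FPKM. Whether the counting used strand is not stated, so reads of Junb and Prdx2 in the overlap cannot be told apart.

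Between the miRNA groups themselves 0 of the 8 tested genes were called, and 0% of all 11419 genes were (596 had an unadjusted p under 0.05). The largest difference among the 8 was that of Atf3, which was lower in miR-451a than in miR-144 TAMs by a log2 fold change of -0.16 (95% interval -0.26 to -0.05, unadjusted p = 0.0063, limma adjusted p = 0.83). Atf3 was the only one of the 8 with an unadjusted p under 0.05. The interval of the difference was -0.12 to 0.09 for Fos, -0.05 to 0.13 for Jun and -0.06 to 0.24 for Ier2, so that differences of these sizes between the miRNAs remain possible. The groups of the 10 genes overlapped in all cases in this comparison, whereas for miR-144 against control 6 of the 8 tested genes had no overlap (53.9% of all tested genes) and for miR-451a 5 of the 8 (55.2%), and Egr3, under the filter, had none in either.

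Other AP-1 family factors with leucine zippers were called about as often as all tested genes (67.2% and 68.3%). Of 12 listed, 10 were tested, and 4 were higher and 3 lower in miR-144 TAMs and 5 higher and 3 lower in miR-451a TAMs, with median log2 fold changes of 0.01 and 0.04 that turned negative after median centring (-0.12 and -0.11). Maf, the founding member of the large MAF factors, rose from 7.66 ± 0.48 FPKM to 51.1 ± 7.13 and 56.1 ± 6.65 (log2 fold changes 2.58 and 2.71). Batf3, which pairs with JUN proteins and is known from dendritic cell development, fell from 7.81 ± 0.51 to 1.01 ± 0.09 and 1.02 ± 0.34 FPKM (-2.13 and -2.14).

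Among 34 other immediate early genes, 29 were tested, and 9 were higher and 15 lower in miR-144 TAMs and 10 higher and 16 lower in miR-451a TAMs, or 82.8% and 89.7% called against 67.2% and 68.3% of all tested genes. Their medians were -0.20 and -0.23, under those of all genes as for the 10 genes described above. All lists were chosen with earlier results of these data known, so these shares and medians are descriptions. Egr2, the third EGR gene, was at 34.2, 33.6, 31.1, 34.996 and 6.93 FPKM in control TAMs, and its highest value was 2.24 FPKM in miR-144 and 1.68 FPKM in miR-451a TAMs. Its log2 fold changes of -3.13 and -3.49 became -3.55 and -3.91 without replicate 5 of control, the sample at 6.93 FPKM. Of these EGR genes Egr1 was thus not called in the main fit, Egr2 was lower and Egr3 was higher. Ccn2, a secreted matrix protein gene, rose from 5.95 ± 0.97 to 27.0 ± 1.96 and 27.9 ± 5.78 FPKM, and Dusp6, whose product dephosphorylates ERK, from 1.94 ± 0.16 to 9.13 ± 1.10 and 9.74 ± 1.5001 FPKM.

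Genes of the MAP kinase cascade, which carries stimuli to the FOS and JUN promoters, were called about as often in each direction as all tested genes (47.1% and 48.1% higher, 20.1% and 20.3% lower). Of 24 listed, 22 were tested, with 11 higher and 4 lower in miR-144 TAMs and 11 higher and 3 lower in miR-451a TAMs, a split that became 7 and 5, and 7 and 8, after median centring. Map3k1, a kinase upstream of JNK, rose from 8.27 ± 0.44 to 19.6 ± 0.94 and 19.6 ± 0.60 FPKM. Mapkapk2, a kinase that p38 activates, rose from 65.2 ± 4.19 to 136 ± 10.1 and 135 ± 11.3 FPKM. Mapk14, which encodes p38 alpha, had log2 fold changes of 0.87 and 0.95 (limma adjusted p = 0.0021 and 0.0011), with overlap through replicate 5 of control at 22.5 FPKM.

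Of 15 regulators of immediate early promoters and corepressors of EGR factors, 14 were tested, and 7 were higher and 3 lower in each miRNA group, again near the shares over all tested genes (47.1% and 48.1% higher, 20.1% and 20.3% lower), which became 4 and 4 in miR-144 and 5 and 6 in miR-451a TAMs after median centring. Elk3, a partner of serum response factor, rose from 5.56 ± 0.58 to 14.2 ± 0.63 and 14.6 ± 0.45 FPKM, and Mef2a from 7.08 ± 0.41 to 14.5 ± 0.87 and 14.8 ± 0.56 FPKM. Mef2c, another MEF2 factor, rose from 0.787 ± 0.069 to 2.84 ± 1.48 and 2.86 ± 1.22 FPKM.

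Genes described as AP-1 or EGR targets numbered 18, of which all 15 tested were called in both comparisons, where 67.2% and 68.3% of all tested genes were, 9 higher and 6 lower (6 and 6 after median centring). This list too was chosen with earlier results of these data known, so its share is a description. The cytokine gene Tnf rose from 1.62 ± 0.40 to 7.39 ± 1.20 and 6.41 ± 1.09 FPKM. Mmp12, the macrophage elastase, fell from 139 ± 9.60 to 14.8 ± 0.82 and 12.9 ± 0.45 FPKM.

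**Figure D4:**
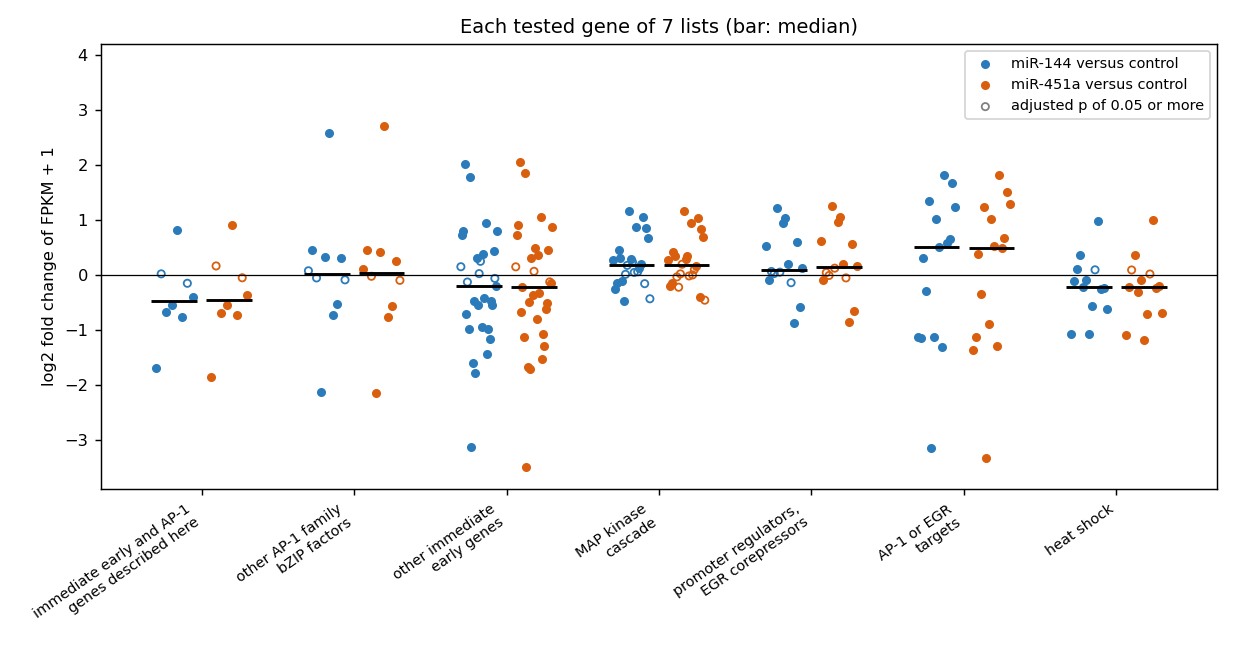
Log2 fold change of FPKM + 1 (vertical axis) of every tested gene in 7 lists, for miR-144 (blue) and miR-451a (orange) TAMs against control TAMs; filled points passed an adjusted p of 0.05, open points did not, and bars are list medians. The medians of the 10 genes described here (-0.48 and -0.46), of other immediate early genes (-0.20 and -0.23) and of heat shock genes (-0.22 and -0.23) are negative, and those of AP-1 or EGR targets (0.50 and 0.48) are positive.

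Heat shock genes, which like immediate early genes respond to cell handling, were mostly lower in the miRNA groups, as were Fos, Fosl2, Jun, Jund and Atf3 but not Ier2 and Egr3, which were higher, or Egr1, Junb and Fosb, which were not called. All 13 were tested, and 3 were higher and 9 lower in miR-144 TAMs and 2 higher and 9 lower in miR-451a TAMs, with medians of -0.22 and -0.23. Of all tested genes 67.2% and 68.3% were called (20.1% and 20.3% lower), and after median centring the heat shock genes split into 2 higher and 9 lower in both comparisons. Hspa1a, the inducible HSP70 gene, fell from 7.64 ± 1.72 to 3.08 ± 0.65 and 2.76 ± 0.54 FPKM, and its cochaperone gene Bag3 from 31.3 ± 1.19 to 14.4 ± 0.27 and 14.2 ± 0.72 FPKM, while Hspb1 rose from 2.09 ± 0.57 to 5.04 ± 0.61 and 5.14 ± 0.79 FPKM. The part of handling in the changes of the 10 genes was not tested.

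Macrophage markers moved with the groups too. Their summed level was 8657 to 9465 FPKM in control, 14633 to 16504 in miR-144 and 14334 to 15509 in miR-451a TAMs, and of the 7 genes 6 were higher and Cd68 was lower in both comparisons. Adgre1, which encodes the sort protein F4/80, rose from 137 ± 4.96 to 361 ± 24.7 and 354 ± 19.6 FPKM, and Itgam, which encodes CD11b, from 25.5 ± 12.7 to 63.8 ± 13.2 and 53.4 ± 25.2 FPKM, with overlap for miR-451a. Markers of other cells also moved with the groups. The summed level of 6 neutrophil markers was 12.7 to 18.5 FPKM in control, 3.40 to 4.90 in miR-144 and 3.87 to 6.64 in miR-451a TAMs, nearly all of it Mmp8, and the other 5 stayed under 1 FPKM in every sample. The 4 Kupffer cell markers summed to 3.30 to 3.75 FPKM in control, 17.0 to 49.9 in miR-144 and 15.7 to 47.0 in miR-451a TAMs, mainly through Cd5l, with Clec4f listed at 0 in all samples. The 4 monocyte markers summed to 2.39 to 3.75, 7.05 to 11.98 and 6.59 to 11.1 FPKM, and the 4 fibroblast markers, led by Col1a1 with Lrat listed at 0, to 69.0 to 87.5, 89.3 to 141 and 122 to 156 FPKM. The 4 endothelial markers summed to 3.70 to 4.29 FPKM in control, 4.67 to 5.02 in miR-144 and 4.65 to 5.93 in miR-451a TAMs, without overlap with control. The rise was mainly that of Kdr. The means of Pecam1 and Stab2 were lower in the miRNA groups, and that of Cdh5 was slightly higher (0.078, 0.094 and 0.107 FPKM), with overlap. The part of any of these markers in the changes of the 10 genes was not tested.

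Within groups, the deviations of the 8 tested genes from their group means correlated from -0.67 (Egr1 and Atf3) to 0.82 (Jun and Jund) over the 15 samples, with a median of 0.06 over 28 pairs. Jund and Ier2 followed at 0.77, and Jun and Junb at 0.69. The genes most like Fos by this measure were Arfgap1 (0.85), Mrpl11 (0.83), Ncapg2 (0.83), 5031425E22Rik (0.81) and Lamtor2 (0.79). Those most like the mean of the 8 genes were Cactin (0.90), Tecr (0.90), Arf6 (0.90), Rab1b (0.89) and B4galnt1 (0.87). These are the highest of 11418 and 11411 correlations, the points share libraries and depth, and no test was made.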

How the data were processed

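RNA of TAMs sorted by FACS was extracted with Trizol and sequenced on an Illumina HiSeq instrument. The authors deposited FPKM per gene in 15 samples (5 control, 5 miR-144, 5 miR-451a, grouped by the labels). The submitters' processing notes name FastQC 0.11.2, STAR and StringTie without their roles, and the genome build, annotation and strand setting are not given in the sources used here. FPKM values are relative to the total of each library, so that a large change of abundant genes moves the others.

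Values were used as log2(FPKM + 1) in limma 3.58.1 (R 4.3.3), fitting 3 group means with a trended prior variance, and p-values were adjusted (Benjamini-Hochberg) over the 11419 genes that averaged 1 FPKM or more. Fosb and Egr3 were below this and were taken from the fit over 29540 genes above 0. The fit was checked on simulated data. Depth was implied from steps of FPKM times length in genes with a single transcript over 1000 bases. Between 42.8% and 55.7% of low values fell on such a step (10% if evenly spread), so reads were not recovered, and no count test was used. Floors of 3 fragments cover counting error only.

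Annotation was GENCODE M21 (GRCm38), which holds 99.7% of the gene identifiers, 86.4% with the same symbol, and these coordinates may not be those of the authors' build. The 10 genes and all lists were chosen with earlier results of these data known. Besides the 10 genes, the text names from each list the 3 genes with the largest mean log2 fold change called in both comparisons with control, and the 5 genes most correlated with Fos and with the mean of the tested genes, and 2 genes that this rule picks are not reported here. Alternatives were pseudocounts of 0.1 and 0.01, no filter, a minimum of 5 FPKM, median centring, quantile normalization, TPM, a replicate block, no trend, fits of only 2 groups, a minimum log2 fold change of 1, and leaving out each sample. Python 3.11.15, pandas 2.3.3, numpy 2.4.6 and matplotlib 3.10.9 were used.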

Additional observations from a re-analysis of the deposited data

Results flagged for a closer look

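Each gene named from the lists and each of the 10 immediate early and AP-1 genes was checked in each group of 5 for a sample that stood apart, by the gap to its nearest neighbor over the whole range. Of 78 such groups 4 had one, where chance gives about 3.9, and none of them belonged to the 10 genes. For Egr2, replicate 5 of control was the lowest control sample at 6.93 FPKM, with the next at 31.1 FPKM (gap 0.861 of the range). The same library was the highest control sample for Mapk14, at 22.5 against 11.03 FPKM (gap 0.836). Its values for Fos, Jun and Atf3, at 12.5, 75.7 and 222 FPKM, lay within or next to those of the other controls. For Mapk14, replicate 3 of miR-451a was the highest at 32.4 against 22.2 FPKM (gap 0.808). For Mmp12, replicate 2 of miR-144 was the lowest at 13.4 against 14.9 FPKM (gap 0.711). Egr2, Mapk14 and Mmp12 stayed called in both comparisons with control in all 25 alternative fits, and with a minimum log2 fold change of 1 Mapk14 (0.87 and 0.95) lost its call. Without replicate 5 of control the log2 fold changes of Mapk14 were 1.10 and 1.18.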

How the results depend on the processing

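The number of the 10 genes called against control was 6 or 7 under all alternatives but one: with a log2 fold change of at least 1 it was 1 (Atf3) in each comparison. It was 0 between the miRNA groups throughout. Under the other alternatives that gave them a value, Atf3, Jun, Fos, Fosl2, Jund, Ier2 and Egr3 kept their direction and call against control. Genes that were not called moved. Fosb became -0.0238 (miR-144) and -0.0384 (miR-451a) after median centring. Egr1 in miR-144 TAMs became -0.12 after median centring and -0.14 after quantile normalization, and ranged from -0.0380 to 0.0711 when single samples were left out. Egr1 in miR-451a TAMs was -0.0114 after quantile normalization and Junb 0.0279 on the TPM scale. Junb in miR-144 TAMs was called with a minimum of 5 FPKM (adjusted p = 0.0497), after median centring (-0.29, adjusted p = 0.0017), after quantile normalization (0.026) and without replicate 4 of miR-451a (0.039), and in miR-451a TAMs after median centring (-0.20, 0.019). Between the miRNA groups, Fosl2 became -0.00744 after median centring and -0.00466 after quantile normalization. Leaving out single samples there gave -0.0413 to 0.0245 for Fos, -0.0243 to 0.0110 for Fosb, -0.0164 to 0.0258 for Fosl2, -0.0365 to 0.114 for Jund and -0.0769 to 0.00534 for Egr3. The cause was not tested.

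The labels number replicates 1 to 5 in each group without saying what a number marks. Same-numbered samples had mean correlations of deviations of -0.01 (control and miR-144), 0.14 (control and miR-451a) and 0.10 (miR-144 and miR-451a). Samples with different numbers had means of 0.003, -0.035 and -0.025. Single same-numbered pairs were all positive for control and miR-451a (0.066 to 0.264). They went down to -0.13 for control and miR-144 and to -0.15 for miR-144 and miR-451a. The main fit did not take the numbers to pair the samples, and what they mark remains unknown. With a replicate block, 6 genes were called for miR-144, 7 for miR-451a and 0 between the miRNA groups, and the added gene was Egr1 (0.16, adjusted p = 0.012). A minimum of 5 FPKM gave no value for Fosb, Egr1 and Egr3. FPKM without counts limits the precision of the low genes Fosb and Egr3.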
